A study of Mus musculus with 4 samples.

Results

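Of the 36794 cells in libraries sorted as BM macrophages, those described here were the 459 cells (1.25%) in which at least 3 of the 4 genes Trib3, Phgdh, Asns and Psat1 were detected, each with at least 1 unique molecular identifier (UMI, the tag that counts an RNA molecule only a single time). They are called members, and the 36335 other cells are called remaining cells. The members were chosen by the UMI counts of these 4 genes in the same libraries, so the levels of the 4 genes are given as a description, with no test. Barcodes counted as cells when they held 200 genes or more and 1000 UMIs or more, of which mitochondrial genes gave no more than 10%.

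The 4 genes belong to the integrated stress response. When amino acids run short, or when other stresses act, kinases phosphorylate the translation factor eIF2 alpha, general protein synthesis slows, and the mRNA of the transcription factor ATF4 is translated. ATF4 then switches on genes that take up and make amino acids and that charge tRNAs, and, with its partner CHOP (encoded by Ddit3), genes that lead to cell death if the stress lasts. Phgdh and Psat1 encode consecutive enzymes of serine synthesis from a glycolytic intermediate, Asns encodes the enzyme that makes asparagine, and Trib3 encodes a pseudokinase that restrains AKT and ATF4.

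The libraries came from BM macrophages that had been grown in culture with M-CSF from marrow of young male C57BL/6J mice. Efferocytic BM macrophages were co-cultured for 16 to 18 h with apoptotic RM1 cells, a mouse prostate cancer line that had been killed with UV light and labelled with the green dye CFSE, and were sorted as F4/80+CFSE+ cells. Non-efferocytic BM macrophages had not engulfed such cells and were sorted as F4/80+ cells. Each of 2 experiments gave 1 library of each group, so each group has n = 2 libraries. Which mice each culture came from was not given in the sources used here, so p-values cover these libraries only. The spread they use is partly shared across genes. The median cell held 11146 and 9600 UMIs in the non-efferocytic libraries of Experiments 1 and 2, against 17171 and 17475.5 in the efferocytic ones. Between 14 and 23 cell barcodes were shared by a pair of libraries, except for 118 between the libraries of Experiment 2, and at most 3 members of a library carried a shared barcode.

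Members were more frequent among efferocytic than among non-efferocytic BM macrophages in both experiments. In Experiment 1, 125 of 6695 efferocytic cells were members (1.87%, exact 95% interval 1.56 to 2.22%) against 66 of 8280 non-efferocytic cells (0.797%, 0.617 to 1.01%). In Experiment 2, 192 of 8408 efferocytic cells were members (2.28%, 1.98 to 2.63%) against 76 of 13411 non-efferocytic cells (0.567%, 0.447 to 0.709%). The efferocytic share was thus 2.34 and 4.03 times the non-efferocytic share. With 2 libraries against 2, the smallest two-sided p of an exact permutation test is 0.333, which cannot pass a threshold of 0.05, and no other test of the share was run. The intervals cover counting error only, not the spread between cultures.

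A rule that counts detected genes is met more easily in cells with more UMIs, the share of members rose with UMIs per cell, and efferocytic cells held more UMIs. Among cells with 10000 to 15000 UMIs, 0.88% and 1.29% of efferocytic cells were members in Experiments 1 and 2, against 0.36% and 0.40% of non-efferocytic cells. Among cells with 20000 to 30000 UMIs, the range that holds the median member of each library, 2.16% and 2.52% of efferocytic cells were members against 2.49% and 2.83% of non-efferocytic cells, with overlapping intervals. For 15000 to 20000 UMIs the shares were 1.53% and 1.82% against 0.84% and 0.55%. Among cells with 30000 UMIs or more, 5.65% and 7.54% of efferocytic cells were members against 11.5% and 8.85% of non-efferocytic cells, so that the order of the groups was turned in both ranges from 20000 UMIs on, with intervals that at 30000 UMIs or more overlapped in Experiment 2 and did not in Experiment 1. Among macrophage-marker cells, defined below, the shares at 20000 to 30000 UMIs were 2.06% and 2.53% of efferocytic against 2.07% and 2.26% of non-efferocytic cells, so the order was not turned in Experiment 2. At 30000 UMIs or more the intervals overlapped in both experiments (4.85% and 5.91% of efferocytic against 7.69% and 3.19% of non-efferocytic cells). With the rule applied after thinning all cells to 5000 UMIs, 13 of 6151 and 19 of 7903 efferocytic cells qualified (0.211% and 0.240%) against 8 of 7181 and 5 of 10007 non-efferocytic cells (0.111% and 0.04997%). The intervals overlapped in Experiment 1 (0.113 to 0.361% against 0.0481 to 0.219%). They did not in Experiment 2 (0.145 to 0.375% against 0.0162 to 0.117%). The part of depth in the difference between the groups was not tested beyond these values.

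**Figure D1:**
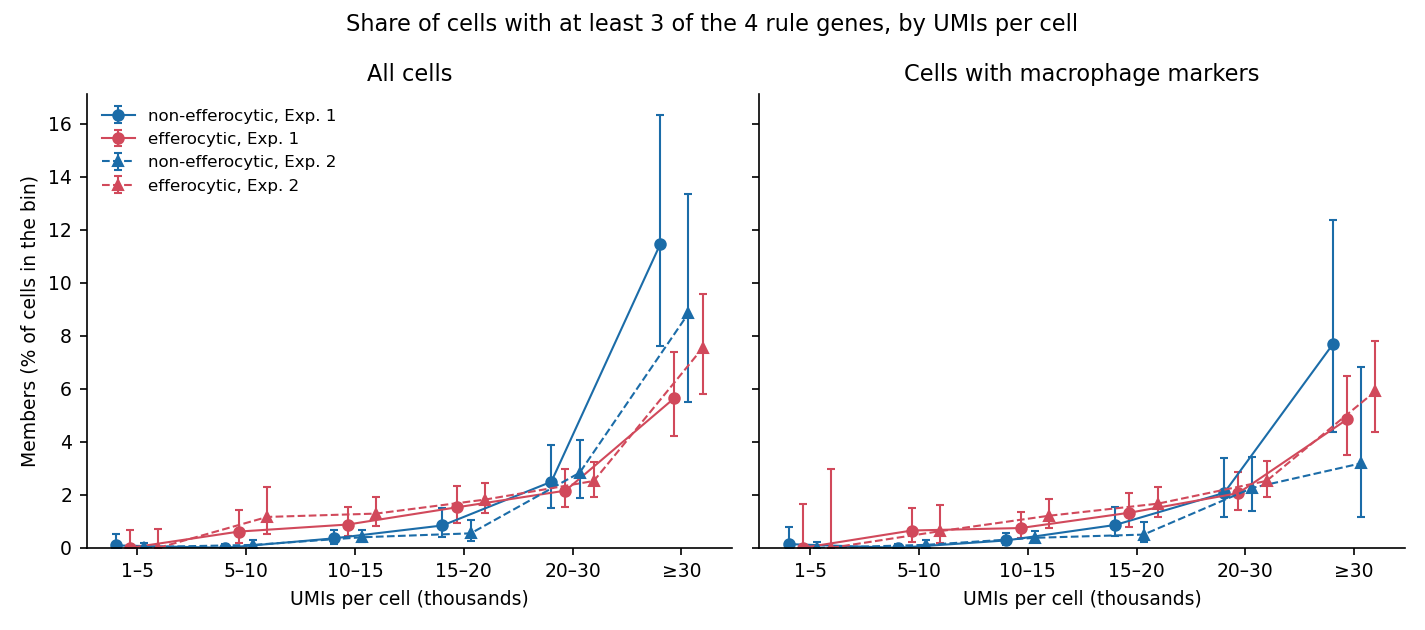
Share of cells that were members (y axis, % of cells in the bin) against UMIs per cell (x axis, in units of 1000 UMIs), for all cells (left) and for cells with macrophage markers (right). Each point is 1 library, bars are exact 95% binomial intervals, colours mark the group and symbols the experiment. The share rose with depth in each library, from 0 to 0.0910% of all cells below 5000 UMIs to between 5.65% and 11.5% at 30000 UMIs or more.

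Most members carried macrophage markers, but not all, so the members as a whole cannot be called macrophages. Of 12 macrophage markers, at least 7 were detected, without enough markers of another class, in 377 of the 459 members (82.1%), namely in 49 of 66, 110 of 125, 52 of 76 and 166 of 192 members of the non-efferocytic and efferocytic libraries of Experiment 1 and of those of Experiment 2. Another 46 members (10.0%) carried at least 5 of 8 fibroblast or stromal markers such as Col1a2 and Dcn, which encode matrix proteins, and in 24 of these at least 7 macrophage markers were detected too. A further 12 members carried at least 6 of 12 markers of the neutrophil lineage, 2 carried at least 5 of 10 epithelial markers, and 22 had too few markers for any class. These limits on marker numbers were set after the data had been seen, and between 4 and 18 members per library lay within 1 marker of the macrophage limit. Cells scored as doublets were 4, 10, 12 and 21 of the members of the 4 libraries in the order above and were kept. They made up 6.06%, 8.00%, 15.8% and 10.9% of members against 6.62%, 5.31%, 10.7% and 6.63% of remaining cells, so their share was higher among members in 3 of the 4 libraries. Their part in the results was tested only by leaving them out, which gave 1007 genes higher and 1056 lower in all members than in remaining cells of equal depth, against 1202 and 1200 with them.

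The stromal cells stood out by how many of them qualified. Of all cells with stromal markers, 46.7%, 41.2%, 24.6% and 40.7% were members in the 4 libraries, against 0.634%, 1.76%, 0.459% and 2.12% of the cells with macrophage markers. The rule is met more easily in deep cells, and stromal-marker cells had medians of 21221 to 43881.5 UMIs against 10611 to 17977 for macrophage-marker cells. Among macrophage-marker cells with 30000 UMIs or more, 7.69%, 4.85%, 3.19% and 5.91% were members. Stromal-marker members were also deeper, with a median of 46508 UMIs against 22860 for macrophage-marker members. Because they were a larger share of the members in the non-efferocytic libraries (14 of 66 and 14 of 76) than in the efferocytic ones (7 of 125 and 11 of 192), the counts per gene list below are given for all members and for the macrophage-marker members alone, and the values of single genes mostly for the latter. Among cells with macrophage markers the efferocytic share was 2.78 and 4.62 times the non-efferocytic share, without equal depth. The part of the other cell types in the order of the groups was not tested.

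Macrophage-marker and stromal-marker members differed mainly in how often Trib3 and Psat1 were among the genes that met the rule. Phgdh and Asns were found in 87.8% and 96.6% of macrophage-marker members and in 100% of stromal-marker members, and Psat1 in 59.2% and 97.8%. A UMI of Trib3 was found in 75.6% of macrophage-marker members but in 2 of 46 stromal-marker members (4.35%) and in 0 of 12 neutrophil-lineage members, which allows a share of up to 25%. Phgdh, Asns and Psat1 together, without Trib3, made up the rule in 44 of the 46 stromal-marker members and in 92 of the 377 macrophage-marker members (24.4%). The most frequent set among macrophage-marker members was Trib3, Phgdh and Asns without Psat1 (40.8%). Among remaining cells, Trib3 was found in 2.10% of macrophage-marker cells (median 13502 UMIs), in 0.437% of neutrophil-lineage cells (median 15875 UMIs) and in 0 of 85 stromal-marker cells (median 24235 UMIs), which allows up to 3.53%. Phgdh and Psat1 were found in 45.9% and 40.0% of the stromal-marker remaining cells, so serine synthesis genes were detected in many stromal cells whether or not they were members.

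Genes that the rule did not use differed between these classes as well. Ddit3, which encodes the stress factor CHOP, was at 183, 233, 238 and 192 CPM (counts per 1000000 UMIs) in the macrophage-marker members of the 4 libraries but at 11.8, 53.4, 29.8 and 23.5 CPM in stromal-marker members. The ranges of the classes did not overlap, and the stromal-marker members lay below the 40.8 to 53.8 CPM of macrophage-marker remaining cells in all libraries but the efferocytic one of Experiment 1. Ero1l, an oxidase of the endoplasmic reticulum that both CHOP and HIF-1 induce, was at 229 to 253 CPM in macrophage-marker members and at 14.9 to 30.9 CPM in stromal-marker members. Chac1, which encodes an enzyme that breaks down glutathione, was at 6.89 to 15.4 CPM in macrophage-marker members and had no UMI in stromal-marker members of any library. The summed level of the serine, glycine and one-carbon list was instead higher in stromal-marker members, at 278 to 434 CPM against 171 to 221 CPM. No test was run between the classes, since their limits were drawn on these data. The reference annotation names Ddit3 under both ENSMUSG00000025408 and ENSMUSG00000116429, and both are in the deposited counts. All Ddit3 levels given here are those of a single entry.

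**Figure D2:**
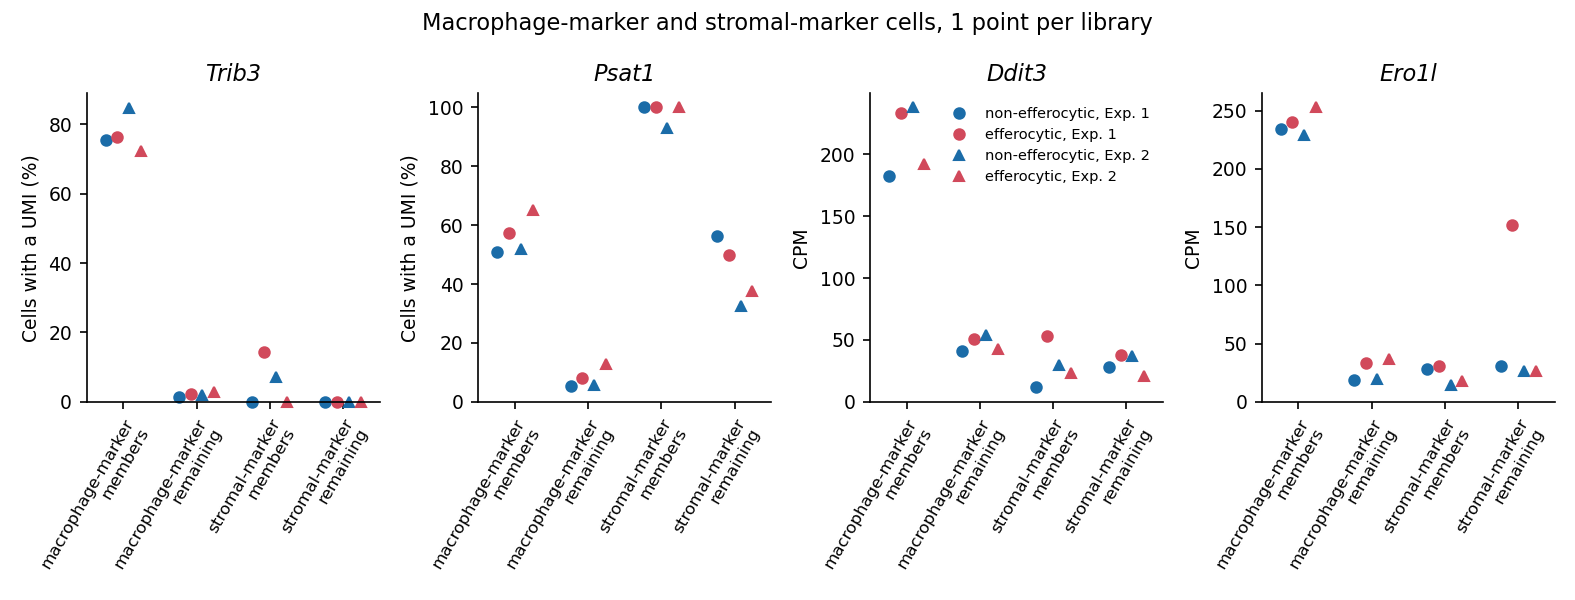
Share of cells with a UMI of Trib3 or Psat1 (%, left panels) and level of Ddit3 and Ero1l (CPM summed over cells, right panels) in members and remaining cells with macrophage or stromal markers. Each point is 1 library, colours mark the group and symbols the experiment; Trib3 and Psat1 were part of the rule, Ddit3 and Ero1l were not. Ddit3 was at 183 to 238 CPM in macrophage-marker members and at 11.8 to 53.4 CPM in stromal-marker members.

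Macrophage-marker members were also described by whether they held a UMI of Trib3, a rule gene, with no test. Members without it held all 3 other rule genes by construction, and were deeper in the non-efferocytic library of Experiment 1 (median 35817.5 against 21350 UMIs) and of similar depth in the others. Those with a UMI of Trib3 had Ddit3 at 234, 257, 267 and 234 CPM, against 78.2, 163, 73.6 and 92.1 CPM in those without. Ero1l was at 332, 293, 243 and 320 CPM with Trib3 and at 36.7, 85.2, 153 and 95.3 CPM without. The groups with and without Trib3 did not overlap for either gene, and both groups lay above the macrophage-marker remaining cells, where Ero1l was at 18.6 to 36.4 CPM. The summed level of G2 and M phase genes went the other way, at 66.6 to 400 CPM with Trib3 and at 766 to 1489 CPM without. The members without Trib3 were only 12, 26, 8 and 46 cells, and this split was drawn after the data had been seen.

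The rule genes themselves, as a description, lay at similar levels in the members of all 4 libraries. Trib3 (ENSMUSG00000032715, chr2:152337422-152344032, minus strand, GRCm38) was at 41.7, 49.2, 41.1 and 41.9 CPM in members and at 1.55 to 2.37 CPM in remaining cells. Phgdh (ENSMUSG00000053398, chr3:98313170-98339990, minus strand) was at 81.9, 95.1, 118 and 93.4 CPM. Asns (ENSMUSG00000029752, chr6:7675169-7693254, minus strand) was at 92.5, 87.0, 92.7 and 91.4 CPM. Psat1 (ENSMUSG00000024640, chr19:15904678-15947337, minus strand) was at 32.5, 36.9, 44.8 and 45.1 CPM. Members were picked by UMIs of these genes, so a raised share of such UMIs in them follows from the rule. They held 37.5 to 54.8% of the Phgdh UMIs, 19.7 to 45.4% of the Trib3 UMIs, 22.1 to 29.7% of the Asns UMIs and 9.85 to 18.6% of the Psat1 UMIs of a library. Just outside the rule were 108, 208, 206 and 415 cells with exactly 2 rule genes, and just inside were 60, 99, 65 and 158 cells with exactly 3.

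Because members held more UMIs than remaining cells (medians of 23166 to 26142 against 9551 to 17378), they were compared with remaining cells of equal depth. Each member was matched with the remaining cell of its library nearest in UMIs, within 10%, and the counts were summed per library and tested with edgeR, with the library as a block. Matching used 456 of the 459 members and 376 of the 377 macrophage-marker members. Of 9608 genes tested, 1202 were higher in members (12.5%) and 1200 lower (12.5%) at an adjusted p under 0.05, and scaling to library totals without TMM gave 1845 higher and 800 lower. In cells with macrophage markers, 780 of 8637 genes were higher (9.03%) and 827 lower (9.58%). This last fit was added after the data had been seen.

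Most tested ATF4 pathway genes, none of which the rule used, were higher in members. Of the 20 tested factors and effectors of the ATF4 pathway, 13 were higher in members and none lower, with a median log2 difference of 1.04 against 0.01 over all genes. In macrophage-marker cells 15 of 19 were higher and none lower, with a median of 1.27 against 0.00. Atf4 itself was at 332, 340, 322 and 279 CPM in macrophage-marker members and at 98.4, 71.7, 63.9 and 79.1 CPM in equal-depth cells, a log2 difference of 1.97 ± 0.11 (SE, edgeR adjusted p = 8e-08). Ddit3 was at 192, 233, 238 and 192 CPM in members against 44.5, 52.0, 38.5 and 36.6 CPM (2.25 ± 0.11, edgeR adjusted p = 1.9e-08). Members lay above equal-depth cells in each library for both genes, and the 2 sets of values did not overlap.

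Atf5, an ATF4-induced factor of the mitochondrial stress response, was at 343, 321, 276 and 250 CPM in macrophage-marker members and at 37.6 to 46.8 CPM in equal-depth cells (2.70 ± 0.12, edgeR adjusted p = 1.7e-08). Chac1 was carried by 98 UMIs in all members and by 4 in equal-depth cells, with 19 against 1, 34 against 1, 11 against 0 and 34 against 2 UMIs in the 4 libraries. Its fitted log2 difference of 4.35 ± 0.42 (edgeR adjusted p = 0.00048) depends on the prior count, and a count of 0 in a library's sum allows 0.594 to 1.66 CPM. Nupr1, a small stress-induced chromatin protein, was higher by 2.85 ± 0.44 in all members and by 2.52 ± 0.17 in macrophage-marker members, where it stood at 41.0, 54.0, 111 and 49.2 CPM against 9.41, 6.22, 15.0 and 10.7 CPM. In Experiment 2 the 2 epithelial-marker cells held it at 10430 and 10667 CPM, beside 442 and 163 CPM over all matched members. These cells, 1 in each library, were alike, with 54937 and 51375 UMIs and Phgdh at 491 and 487 CPM. Whether they carried the same barcode was not tested. Sesn2, which senses leucine and restrains mTORC1, was higher by 1.36 ± 0.20 in macrophage-marker members. Its difference over all members (0.97 ± 0.22) was not called without the library of efferocytic BM macrophages of Experiment 2. Cebpg, the partner with which ATF4 binds many of its sites, showed the smallest difference of these genes, at 0.42 ± 0.10 in macrophage-marker cells (edgeR adjusted p = 0.01) and 0.25 ± 0.08 over all members (edgeR adjusted p = 0.06).

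**Figure D3:**
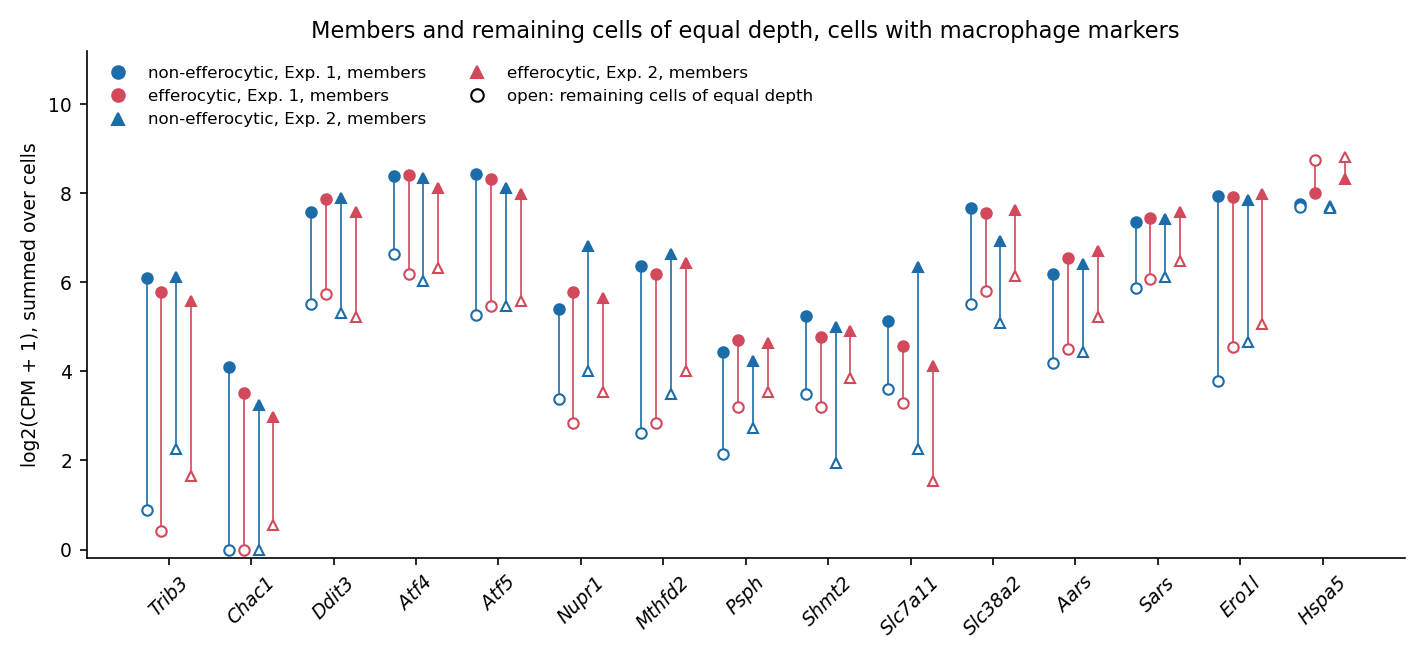
Level of 15 genes (y axis, log2(CPM + 1) of counts summed over cells) in macrophage-marker members (filled) and in remaining macrophage-marker cells of equal depth (open), joined by a line within each library. Colours mark the group and symbols the experiment; Trib3 was part of the rule. Each gene but Hspa5 lay higher in members in all 4 libraries, while Hspa5 was lower in members of both efferocytic libraries.

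Mthfd2, Shmt2 and Psph, enzymes of serine and one-carbon metabolism outside the rule, were higher in members. Mthfd2, which uses the one-carbon unit that serine gives up, was at 82.1, 71.6, 97.8 and 85.3 CPM in macrophage-marker members and at 5.13, 6.22, 10.3 and 15.2 CPM in equal-depth cells (2.98 ± 0.19, edgeR adjusted p = 2.1e-07). Shmt2, which turns serine into glycine in mitochondria, was at 36.8, 26.2, 31.0 and 29.0 CPM against 10.3, 8.18, 2.82 and 13.5 CPM (1.54 ± 0.23). Psph, the last enzyme of serine synthesis, was at 20.5, 25.2, 17.9 and 24.0 CPM against 3.42 to 10.7 CPM (1.46 ± 0.21). These 3 genes and Mthfd1l, whose call over all members was lost on leaving out any library but the efferocytic one of Experiment 1, were the called members of the list of serine, glycine and one-carbon genes, with 4 of 9 higher and none lower in macrophage-marker cells and, over all members, 5 of 10 higher (Tyms added) and Aldh1l1 lower. Of all genes, 9.03% were higher and 9.58% lower in macrophage-marker cells and 12.5% in each direction over all members. Aldh1l2, another mitochondrial folate enzyme, was too low to be tested, with 2, 2, 2 and 6 UMIs in the matched members of the 4 libraries and 2 in all equal-depth cells.

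Of 13 tested genes of other amino acid synthesis and breakdown, 3 were higher in macrophage-marker members and none lower, beside the 9.03% and 9.58% of all genes. Over all members 2 were higher (Aldh18a1 and Ass1) and 2 lower (Bcat2, which breaks down branched-chain amino acids, and Glul, the glutamine synthetase), near the 12.5% of all genes in each direction. Aldh18a1, which starts proline synthesis from glutamate, was at 6.58 to 9.74 CPM against 1.71 to 5.46 CPM (0.91 ± 0.30, edgeR adjusted p = 0.049). The other called genes were Got1, the aspartate aminotransferase of the cytosol, and Ass1, the argininosuccinate synthetase, whose call over all members was lost without either library of Experiment 2. Pycr1, which completes proline synthesis, had 1, 0, 0 and 0 UMIs in macrophage-marker members and could not be tested there.

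Several amino acid transporters were higher in members. Slc7a11, the cystine importer, was at 34.2, 22.9, 79.9 and 16.4 CPM in macrophage-marker members and at 11.1, 8.84, 3.76 and 1.90 CPM in equal-depth cells (2.29 ± 0.32, edgeR adjusted p = 0.00022). Slc38a2, a carrier of neutral amino acids, was at 202, 187, 120 and 195 CPM against 32.9 to 69.4 CPM (1.72 ± 0.12). Slc7a1, the carrier of arginine and lysine, and Slc1a5, a glutamine carrier, were higher by 2.12 ± 0.25 and 1.25 ± 0.16, and Slc3a2, the heavy chain that Slc7a11 and Slc7a5 share, by 0.97 ± 0.10. Altogether 5 of 11 transporters were higher and 1 lower, the lysosomal exporter Slc36a1, in macrophage-marker cells, beside 9.03% and 9.58% of all genes. Over all members 6 of 12 were higher and 3 lower (Slc36a1, Slc43a2 and Slc7a7), beside 12.5% in each direction. Slc7a5, the leucine carrier, was too low to be tested, with 37 UMIs in macrophage-marker members and 7 in equal-depth cells.

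Most cytosolic tRNA synthetases, the enzymes that load amino acids on tRNAs for translation, were higher in members, and no mitochondrial one was called. Of 20 cytosolic synthetases tested, 14 were higher and none lower both over all members (median 0.67) and in macrophage-marker cells (median 0.69). Aars, for alanine, was at 71.8, 93.2, 84.6 and 103 CPM in macrophage-marker members against 17.1, 21.6, 20.7 and 36.1 CPM (1.79 ± 0.13, edgeR adjusted p = 1e-06). Sars, for serine, was at 162, 174, 171 and 191 CPM against 57.3, 66.8, 68.6 and 87.7 CPM (1.25 ± 0.10), and the 2 sets of values did not overlap for either gene. None of 11 mitochondrial synthetases was called over all members, nor any of 9 in macrophage-marker cells, beside 12.5% and 9.03% of all genes called higher. The 2 lists were not tested against each other. Of 12 eIF2 alpha kinases and partners, 1 was called over all members and none in macrophage-marker cells, beside 12.5% and 9.03% of all genes called higher. The called gene was Eif2s1 (0.34 ± 0.09), lost without either non-efferocytic library or without the efferocytic library of Experiment 1. Its difference turned to -0.022 with all 4 rule genes and to -0.54 after thinning, where the median of all genes was -0.45. It turned to -0.013 among cells with at least 3 macrophage-marker UMIs and no UMI of a neutrophil, stromal or lymphocyte marker. Over the 7 amino acid and ATF4 lists together, 41 of 98 genes were higher and 6 lower in all members, beside 12.5% of all genes in each direction, and 41 of 93 higher and 1 lower in macrophage-marker cells, beside 9.03% and 9.58%.

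The DNA element through which ATF4 acts with C/EBP partners has the core TGATGNAA. Windows from 250 bases before to 50 after the RefSeq start (GRCm38.p6) were searched for it on both strands. It was found in 8 of the 31 genes with a window that belong to the 7 lists and were higher in members (25.8%), in 4 of 44 tested list genes that were not higher (9.09%), in 31 of 933 higher genes of any kind (3.32%), in 33 of 943 lower genes (3.499%), in 214 of 7644 genes tested (2.80%) and in 1219 of 27025 genes with a window (4.51%). Trib3 and Asns held it, and Phgdh and Psat1 had no such letters in these windows. The stretches below show matches of both rule genes and of the 8 list genes, though not every match of each gene. Each is 30 bases written 5′ to 3′ along the gene's strand, with the match in capitals, so that matches on the other strand show the reverse complement of the core.
Trib3 (chr2:152344028-152344057, minus): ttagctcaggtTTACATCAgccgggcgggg
Asns (chr6:7693214-7693243, minus): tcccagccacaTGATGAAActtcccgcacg
Chac1 (chr2:119351038-119351067, plus): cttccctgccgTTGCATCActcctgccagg
Nupr1 (chr7:126625562-126625591, minus): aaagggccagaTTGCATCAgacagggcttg
Jdp2 (chr12:85599372-85599401, plus): atagccggggcTGATGCAAcccgtcccgcc
Slc7a11, first match (chr3:50443661-50443690, minus): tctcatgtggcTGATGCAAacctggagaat
Slc7a11, second match (chr3:50443642-50443671, minus): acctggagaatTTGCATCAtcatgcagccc
Aars (chr8:111033840-111033869, plus): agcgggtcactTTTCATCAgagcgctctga
Gars (chr6:55037960-55037989, plus): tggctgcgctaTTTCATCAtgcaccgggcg
Tars (chr15:11399655-11399684, minus): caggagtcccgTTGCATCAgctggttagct
Yars (chr4:129189895-129189924, plus): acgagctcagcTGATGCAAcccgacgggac

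Aars, Gars, Tars and Yars encode cytosolic tRNA synthetases, and Jdp2 encodes a partner of the ATF family. A match is a description of the sequence, not a measured binding site.

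Few endoplasmic reticulum chaperone genes were called over all members, and in macrophage-marker members more were lower than higher. Over all members 1 of 22 tested genes of the unfolded protein response and chaperones was higher and 1 lower (median -0.07), beside 12.5% of all genes in each direction. In macrophage-marker members 2 were higher and 4 lower (median -0.16), beside 9.03% and 9.58%. Ero1l was the strongest change of the list, at 246, 240, 229 and 253 CPM against 12.8, 22.6, 24.4 and 32.5 CPM (3.27 ± 0.15, edgeR adjusted p = 1.7e-08). Hspa5, which encodes the chaperone BiP, was at 217, 256, 209 and 317 CPM in macrophage-marker members against 207, 431, 201 and 452 CPM (-0.39 ± 0.12, edgeR adjusted p = 0.039). Its values in members overlapped those of equal-depth cells, with lower levels in members of the efferocytic libraries alone, and over all members it did not pass the test (-0.13 ± 0.20, edgeR adjusted p = 0.69). There it was at 354 and 386 CPM against 272 and 240 CPM in the non-efferocytic libraries. In the efferocytic ones it was at 274 and 358 CPM against 425 and 478 CPM. For the whole list the difference of this contrast between groups, efferocytic minus non-efferocytic, had a median of -0.41 over all members. It was above 0 for 3 of 22 genes, and none was called. Calr, Pdia3 and Sdf2l1, chaperones and folding factors, were the other lower genes in macrophage-marker cells. Of 10 mitochondrial stress genes 3 were higher and none lower in both sets, beside 12.5% of all genes higher over all members and 9.03% in macrophage-marker cells, among them Hspa9, the mitochondrial Hsp70, at 230 to 304 CPM against 68.6 to 105 CPM (1.64 ± 0.11).

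Glycolysis and HIF target genes were higher throughout. All 20 tested genes of this list were higher in members, both over all members (median 0.79) and in macrophage-marker cells (median 1.09). Ankrd37, a HIF-1 target, was at 43.6, 51.3, 36.6 and 24.5 CPM in macrophage-marker members and at 0.855, 8.84, 0.940 and 1.66 CPM in equal-depth cells (3.30 ± 0.29, edgeR adjusted p = 4.6e-06). Slc2a1, the glucose importer GLUT1, was at 53.9, 43.2, 47.9 and 45.4 CPM against 10.4 to 14.5 CPM (1.98 ± 0.14), and Vegfa, the endothelial growth factor, at 77.8, 56.6, 43.2 and 38.0 CPM against 6.89 to 23.5 CPM (1.93 ± 0.20). Slc16a3, the lactate exporter, was higher by 1.49 ± 0.19. For each of these 4 genes the members and the equal-depth cells did not overlap. Of 14 NRF2 targets, 5 were higher and 3 lower (Ftl1, G6pdx and Slc48a1) over all members, beside 12.5% of all genes in each direction. In macrophage-marker cells 7 were higher and 1 lower, beside 9.03% and 9.58%, and the higher genes included Sqstm1, the autophagy receptor p62 (1.56 ± 0.09), and Txnrd1, a thioredoxin reductase (0.84 ± 0.08).

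**Figure D4:**
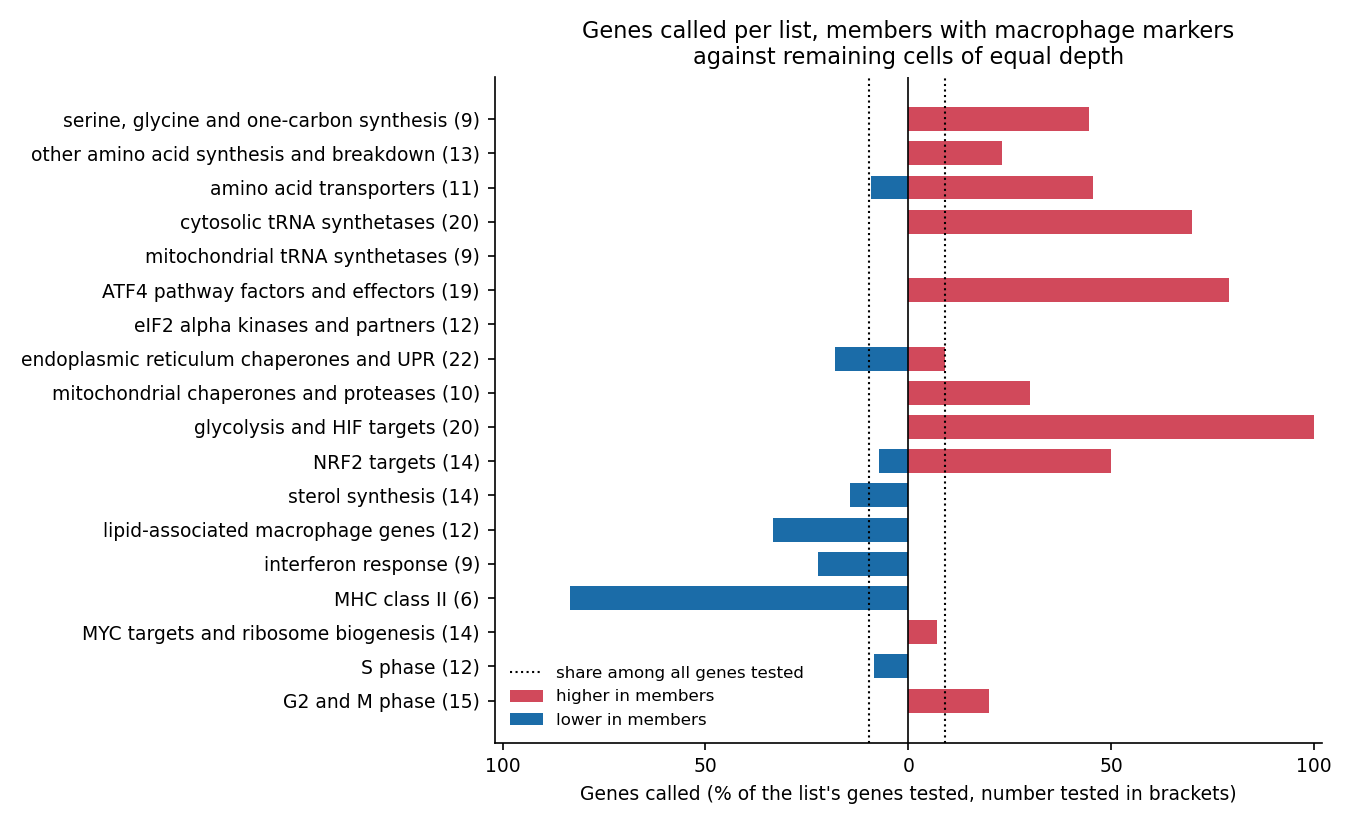
Genes called higher (right) or lower (left) in macrophage-marker members than in remaining macrophage-marker cells of equal depth, as a percentage of the genes of each list that were tested (number in brackets; edgeR adjusted p under 0.05). Dotted lines mark the share over all genes tested, 9.03% higher and 9.58% lower. All 20 glycolysis and HIF genes, 15 of 19 ATF4 pathway genes and 14 of 20 cytosolic tRNA synthetases were higher, and 5 of 6 MHC class II genes were lower.

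Most MHC class II genes were lower in members. Of 6 MHC class II genes, 5 were lower both over all members (median -1.54) and in macrophage-marker cells. For this and the other lists of this paragraph, the share of all genes called lower was 12.5% over all members and 9.58% in macrophage-marker cells. Cd74, the chaperone of MHC class II, was at 139, 6.21, 225 and 5.46 CPM in macrophage-marker members against 411, 23.2, 317 and 73.7 CPM (-1.70 ± 0.31, edgeR adjusted p = 0.0015). Its level was low in both groups of cells of the efferocytic libraries, and members lay below equal-depth cells within each library. The sign of the Cd74 difference over all members (-2.02) turned to 0.09 under the gate that had been planned for this comparison, which used only cells with at least 3 macrophage-marker UMIs and no UMI of a neutrophil, stromal or lymphocyte marker. H2-Ab1, which encodes the beta chain of I-A, was lower by -1.86 ± 0.31 on the log2 scale. Apoe, the lipid carrier that marks lipid-associated macrophages, was at 6266, 4821, 5233 and 3735 CPM against 6983 to 15770 CPM (-1.29 ± 0.10), and 4 of 12 genes of its list were lower and none higher in macrophage-marker cells, against 10 of 12 lower over all members. Macrophage markers were lower in 11 of 12 cases over all members, and 7 of 12 were lower (among them Csf1r, the M-CSF receptor, and Mertk, a receptor for apoptotic cells) and Cd14 higher in macrophage-marker cells.

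The largest increases over all members included genes known from other cell types. Mpo, Ctsg and Elane, proteases and peroxidase of neutrophil granules, and Bok, Adamts1, Rspo2, Adamts5 and Sfrp2, of which the last 4 are made by stromal cells, were the 8 largest increases. The 8 largest decreases were Rapsn, Cd74, Ighm, H2-Ab1, Matk, Slco2b1, Aif1 and Sh2d1b1. The summed level of the 8 stromal markers was 5487, 1436, 5240 and 1200 CPM in members and 2315, 1.12, 1246 and 192 CPM in equal-depth cells. The 12 neutrophil-lineage markers summed to 7232, 3579, 17161 and 3730 CPM in members and to 2524, 3957, 87.9 and 38.2 CPM in equal-depth cells, with 9 or 10 of the 12 detected in the members of each library. In macrophage-marker members the stromal sum fell to between 0.713 and 25.1 CPM, the neutrophil-lineage sum to between 31.8 and 90.2 CPM, and the 10 epithelial markers were at 0 in all 4 libraries.

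Among macrophage-marker members the 8 largest increases were Cox6a2, Col18a1, Cav1, Cd86, Ankrd37, Ero1l, Mthfd2 and Prss50. Col18a1, a basement membrane collagen, was at 168, 218, 75.2 and 105 CPM against 17.1, 13.4, 6.58 and 12.4 CPM (3.45 ± 0.16, edgeR adjusted p = 1.7e-08). Cd86, a costimulatory ligand for T cells, was at 39.3, 24.9, 36.6 and 14.3 CPM against 3.42, 1.96, 4.70 and 1.19 CPM (3.38 ± 0.25). Cox6a2, a subunit of cytochrome c oxidase known from muscle, was higher by 3.85 ± 0.26. The 8 largest decreases were Lrrc14b, Rapsn, Ighm, H2-Ab1, Hpgd, Slco2b1, Cd74 and Matk. Hpgd, which inactivates prostaglandins, was lower by -1.75 ± 0.21 on the log2 scale.

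MYC target and cell cycle genes depended on which members were used. Over all members 12 of 14 MYC and ribosome biogenesis genes and 12 of 15 G2 and M phase genes were higher. This compares with 12.5% of all genes. In macrophage-marker cells 1 of 14 and 3 of 15 were higher, beside 9.03% of all genes. Myc was higher by 1.07 ± 0.26 over all members (edgeR adjusted p = 0.017, lost without the efferocytic library of Experiment 2). This difference turned to -1.23 when rule and sums were taken after thinning to 5000 UMIs, where the median of all genes was -0.45. In macrophage-marker cells Myc was higher by 0.28 ± 0.31 and did not pass the test. Rrm2 and Tyms, enzymes that make DNA precursors, were higher over all members (0.89 and 0.57, both lost without either non-efferocytic library) and had differences of the opposite sign in macrophage-marker cells (-0.61 and -0.64), which did not pass the test.

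The list levels changed with the number of rule genes detected in a cell. In macrophage-marker cells thinned to 5000 UMIs, the ATF4 pathway list summed to 1370, 1148, 1325 and 1055 CPM in cells with none of the rule genes and to 1604, 1262, 1499 and 1139 CPM in cells with 1. It rose to 2623, 2328, 2607 and 1624 CPM in cells with 2 rule genes, just outside the rule, and to 3390, 3431, 3084 and 2849 CPM in cells with 3, just inside. The sum over cells with 2 rule genes thus lay between those of members and of other cells. Sums do not show whether single cells were intermediate or a mixture of high and low cells. Cytosolic tRNA synthetases rose from 586 to 742 CPM with none of the rule genes to between 1056 and 1338 CPM with 3. The number of rule genes was counted in the full data, and the rule genes were not part of these lists.

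**Figure D5:**
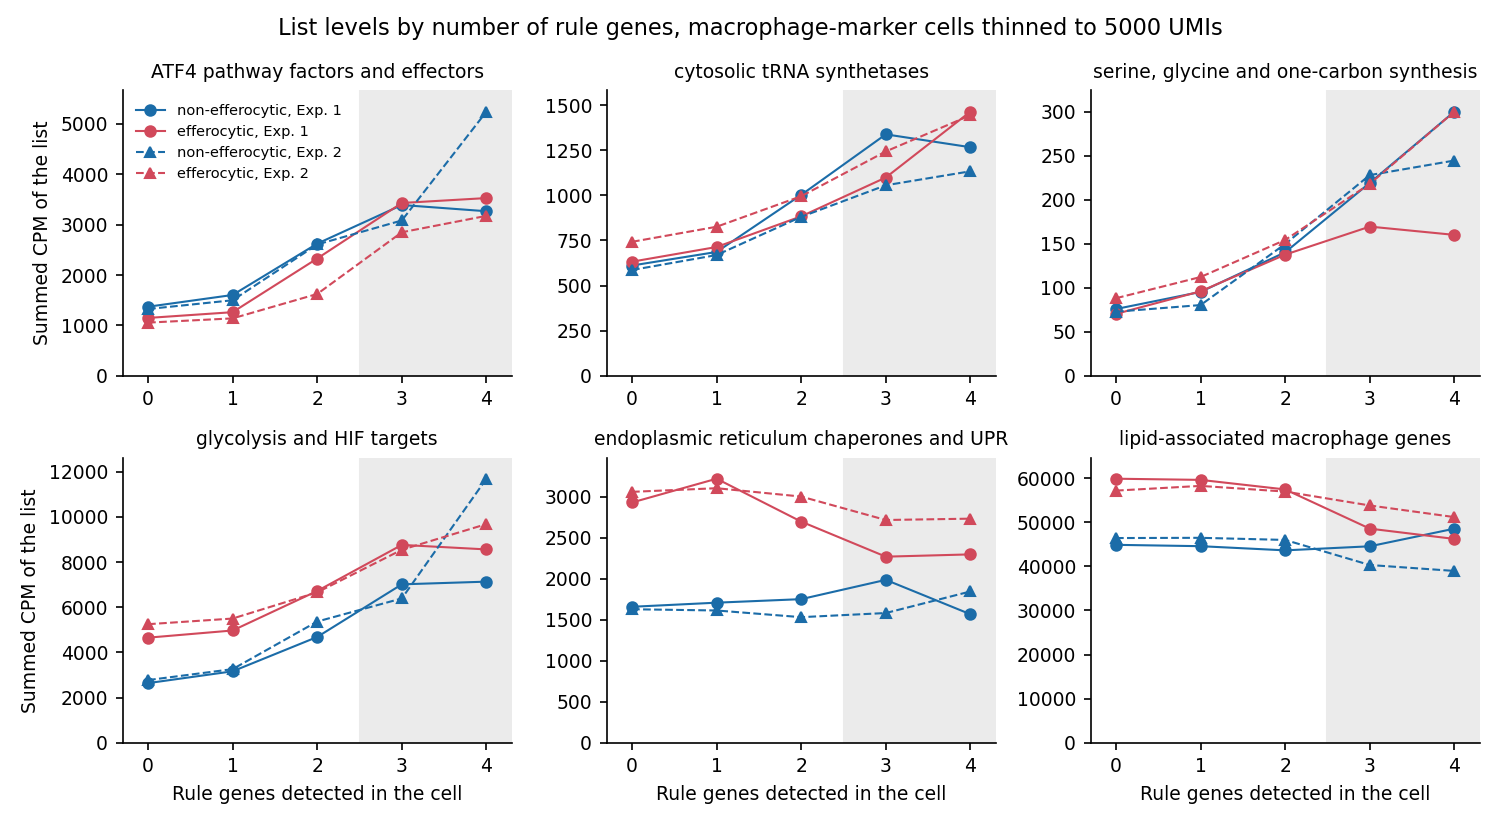
Summed level of 6 gene lists (y axis, CPM) by the number of rule genes detected in the cell (x axis), for macrophage-marker cells thinned to 5000 UMIs. Each line is 1 library, colours mark the group, line styles the experiment, and the shaded area the members; the points at 4 rule genes rest on 6, 25, 9 and 32 cells. ATF4, tRNA synthetase, serine and glycolysis lists rose from 0 to 3 rule genes in each library, the step from 3 to 4 went either way, and endoplasmic reticulum chaperones rose from 0 to 3 only in the non-efferocytic library of Experiment 1.

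Members also lay near each other by genes outside the rule. Among the 20 nearest neighbours of a member, 21.2%, 34.5%, 19.5% and 22.4% were members in the 4 libraries, although members were 0.905%, 2.03%, 0.749% and 2.43% of the cells used. The 4 rule genes were left out of this calculation. Leaving out the 7 amino acid and ATF4 lists as well gave 21%, 34.4%, 19.9% and 22.1%. In macrophage-marker cells alone the shares were 15.1%, 34.0%, 14.2% and 20.8%. In the first case 10, 14, 18 and 36 members had no member among their neighbours, so members did not form a closed cluster. These values describe cells within a library and carry no test.

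The difference between members and equal-depth cells was itself compared between efferocytic and non-efferocytic BM macrophages. Over all members 14 of 10323 genes differed towards efferocytic cells (0.136%) and 1 towards non-efferocytic cells (0.00969%), and none belonged to the amino acid and ATF4 lists. The 14 included the stromal genes Cxcl12, Lox, Pcolce, Mgp and Timp3, which equal-depth cells of the efferocytic libraries held at 0 to 4.36 CPM, beside the stromal sums given above. In macrophage-marker cells edgeR called 0 of 9162 genes towards efferocytic cells (0%) and 1 towards non-efferocytic cells (0.0109%), with 711 genes at an unadjusted p under 0.05, and DESeq2 called 3 and 2. The called gene was Pf4, a chemokine, at 305 and 453 CPM in non-efferocytic members against 135 and 127 CPM in equal-depth cells, and at 454 and 294 CPM in efferocytic members against 502 and 301 CPM. Its difference of differences was -1.55 ± 0.19 (edgeR adjusted p = 0.02). Leaving out the non-efferocytic library of Experiment 1 or 2 gave 41 and 63 or 30 and 53 called genes in the 2 directions, so these counts rested on single libraries. On counts simulated for all members, the comparison found 5 of 100 genes changed 2-fold and 60 of 100 changed 4-fold. The spread of these counts was fixed (dispersion 0.05) and not estimated from the data, so the real counts may differ.

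Efferocytic members were finally compared with non-efferocytic members, with the experiment as a block. Over all members 538 of 10071 genes were higher in efferocytic members (5.34%) and 788 lower (7.82%). In macrophage-marker members 138 of 8879 were higher (1.55%) and 221 lower (2.49%). Stromal markers were lower in 8 of 8 cases and neutrophil-lineage markers in 8 of 9 over all members, beside a smaller share of stromal-marker cells among efferocytic members in both experiments and of neutrophil-lineage cells in Experiment 2, so the values below are those of macrophage-marker members. With 4 sums and a single residual degree of freedom, the spread came mostly from that shared across genes, so the counts of calls are not firm. Without the experiment block they were 258 higher and 497 lower over all members and 9 and 49 in macrophage-marker members. Leaving out a library was possible only without the block, and then gave 0 and 0 over all members without either efferocytic library and 6 higher in macrophage-marker members without the non-efferocytic library of Experiment 2.

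Few genes of the amino acid and ATF4 lists were called between efferocytic and non-efferocytic macrophage-marker members. Of the 98 tested genes of the 7 amino acid and ATF4 lists, none was higher in efferocytic macrophage-marker members and 2 were lower, near the 1.55% and 2.49% of all genes, with a median log2 difference of -0.03. Ddit3 differed by 0.00 ± 0.17, Atf4 by -0.08 ± 0.17, Atf5 by -0.10 ± 0.17, Chac1 by -0.45 ± 0.43, Mthfd2 by -0.18 ± 0.19 and Ero1l by 0.07 ± 0.17, and none of them passed the test. On counts simulated for all members, this comparison found 8 of 100 genes changed 2-fold and 92 of 100 changed 4-fold. The simulated spread was fixed (dispersion 0.05) and not estimated from these data, so these numbers need not hold for the real counts. With 2 libraries per group, the lack of a call does not show equal levels. Over all members 9 of 106 list genes were higher (Aars, Ddit3, Gadd45a, Gdf15, Gpt, Iars2, Slc38a1, Slc38a2 and Slc7a8) and 6 lower (among them Bcat1, Ddr2, Nupr1 and Tyms), beside 5.34% and 7.82% of all genes. There Ddit3 and, from the chaperone list, Ero1l were called higher in efferocytic members (0.58 ± 0.16 and 0.65 ± 0.14), beside the lower levels of both in the stromal-marker members. The 2 genes lower in macrophage-marker members were Slc7a11, at 32.3 and 79.9 CPM in non-efferocytic and at 22.9 and 16.4 CPM in efferocytic members (-1.49 ± 0.24, edgeR adjusted p = 5.3e-08), and Ass1 (-1.57 ± 0.48, edgeR adjusted p = 0.032). For Slc7a11 the fall was larger in Experiment 2, and its SE came mostly from the spread shared across genes. In equal-depth cells Slc7a11 was lower in the efferocytic libraries too, at 8.84 and 1.90 CPM against 11.1 and 3.76 CPM. Ass1 was at 4.85 and 22.6 CPM in non-efferocytic and at 6.87 and 2.38 CPM in efferocytic members, so its groups overlapped and its direction differed between the experiments.

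MHC class II and sterol synthesis genes and the chemokine gene Cxcl2 did differ. Cd74 was at 131 and 225 CPM in non-efferocytic and at 6.21 and 5.46 CPM in efferocytic macrophage-marker members (-4.95 ± 0.24), and H2-Eb1, H2-Aa and H2-Ab1, chains of MHC class II, were lower too, with 5 of 6 genes of the list called. Cxcl2, which encodes an attractant of neutrophils, was at 159 and 149 CPM against 6.87 and 0.713 CPM (-5.52 ± 0.26). Both were also lower in equal-depth efferocytic cells, where Cd74 was at 23.2 and 73.7 CPM against 411 and 317 CPM and Cxcl2 at 19.3 and 1.90 CPM against 55.6 and 7.52 CPM, so a lower level was not particular to members. Of 15 sterol synthesis genes 11 were lower and none higher (median -1.12), among them Idi1, an isomerase of the pathway (-1.86 ± 0.30). Of all genes tested in this comparison, 1.55% were called higher and 2.49% lower.

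The genes that were most raised in efferocytic members included Cdkn1c, which encodes the cell cycle inhibitor p57. Cdkn1c was at 0.808 and 2.82 CPM in non-efferocytic members and at 103 and 46.1 CPM in efferocytic members (5.39 ± 0.40), with 39.3 and 93.0 CPM against 66.1 and 96.0 CPM in equal-depth cells. Its level was thus low only in the non-efferocytic members of these 4 sets of cells, and its difference of differences did not pass the test (edgeR adjusted p = 0.10). The non-efferocytic values lie at or under the limit of 3 counts, so the fitted difference is no bound. Med21, a subunit of the Mediator complex, was at 104 and 95.9 CPM in non-efferocytic and at 492 and 230 CPM in efferocytic members (1.76 ± 0.19), against 46.2 to 55.5 CPM in equal-depth cells of all 4 libraries. Tst, a mitochondrial sulfurtransferase, Nckap5l and Ccnb1, the G2 cyclin B1, were the others of the 5 largest increases, at 3.03 ± 0.50, 2.64 ± 0.28 and 1.65 ± 0.29.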

How the data were processed

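Single-cell 3′ libraries of sorted BM macrophages were sequenced by the authors and deposited as raw UMI counts per gene and barcode, with no normalization. The submitters' processing notes and the file headers name Cell Ranger 3.0.0 and 3.1.0 (the headers give 3.0.0 in Experiment 1 and 3.1.0 in Experiment 2), Seurat 3.1 and the mm10 build. Doublets were scored by neighbours of simulated doublets and kept. Per library, counts were added up over cells and given as CPM. Members were matched 1 to 1 with the remaining cell of the same library nearest in UMIs, within 10%. The sums were tested with edgeR 4.0.16 (R 4.3.3, quasi-likelihood, TMM, filterByExpr, Benjamini-Hochberg over all genes tested, threshold 0.05), two-sided. The library was a block for members against equal-depth cells and for its difference between groups, and the experiment was a block for efferocytic against non-efferocytic members. The experiment number in the labels marks the shared experiment, and the deviations of same-numbered members' sums correlated at 0.318 over 7652 genes. DESeq2 1.42.0 and the other alternatives are given in the closing section.

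Each library held 101216659 to 155224183 UMIs in its cells. Shares carry exact (Clopper-Pearson) 95% intervals from scipy 1.17.1, and a limit for a count of 0 is 3 counts of the total, both for counting error only. Neighbours were taken in 20 principal components of 2000 variable genes of cells thinned to 5000 UMIs (scikit-learn 1.9.0). Genes were named by rule: list genes with the 4 largest called differences plus a set of stress genes always given, the 8 largest differences each way among genes at 10 CPM or more with the same direction in all 4 libraries, and the 5 largest each way between the groups. From these, the genes whose role is described were taken; Cd14, Csf1r, Mertk, Calr, Pdia3, Slc36a1, Slc43a2, Slc7a7, Ftl1, Slc48a1, Gadd45a, Gdf15, Iars2, Slc38a1, Slc7a8, Aldh1l1, Got1, Idi1, Cxcl12, Lox and Pcolce were added after their values were seen. The members, lists and markers were chosen with earlier results of these data known, and the fits on macrophage-marker cells were added after the data were seen. Scripts were tested on simulated data. Some genes and sequences are not reported here.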

Additional observations from a re-analysis of the deposited data

Results flagged for a closer look

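The difference between members and equal-depth cells itself differed between efferocytic and non-efferocytic BM macrophages, by an interaction term in edgeR (adjusted p under 0.05), for 6 of the genes named by rule. Over all members the log2 difference of differences was 4.05 for Ctgf, 4.06 for Itm2a, 5.06 for Mgp, 4.96 for Serpine2 and 7.90 for Timp3, all of which are genes of stromal cells or matrix. For these 5 genes, equal-depth efferocytic cells were at 0 to 4.36 CPM, so the fitted values depend on the prior count and are no bounds. Ctgf was at 282 and 222 CPM in non-efferocytic members against 57.0 and 39.3 CPM in equal-depth cells, and at 5.31 and 18.8 CPM in efferocytic members against 0 and 0.198 CPM. Its level was thus lower, not higher, in efferocytic than in non-efferocytic members, and its difference of differences turned to -0.37 when all remaining cells replaced those of equal depth. None of these 5 genes was called in macrophage-marker cells, where the difference of differences for Pf4 was -1.55. The part of stromal cells in these values was not tested beyond the sums and classes given above.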

How the results depend on the processing

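Members against equal-depth cells gave 1202 higher and 1200 lower genes. The counts were 2616 and 2239 against all remaining cells, 1845 and 800 with library totals (69.8% of calls higher, against 50.04%, with the median of all genes at 0.13), 235 and 175 with all 4 rule genes, 121 and 532 after thinning, and 383 and 342 in cells of the planned macrophage gate. After thinning the median of all genes was -0.45, and 8, 13, 5 and 19 members were set against all thinned remaining cells. Without the replicate block the counts were 362 and 508. In macrophage-marker cells, a choice made after seeing the data, they were 780 and 827, with 360 and 279 without the replicate block and 362 and 402 with DESeq2. Leaving out a library gave 671 to 928 and 697 to 875 over all members, lowest without the efferocytic library of Experiment 2, and 404 to 762 and 429 to 709 in macrophage-marker cells, lowest without that of Experiment 1.

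The difference between groups gave 14 and 1 genes, and 2 and 0 with library totals or at 10 CPM or more, 309 and 656 against all remaining cells, 2 lower with DESeq2 and 0 and 0 without the replicate block. Leaving out a library gave 28 to 125 and 1 to 24. In macrophage-marker cells it gave 0 and 1, 3 and 2 with DESeq2, 0 lower without the replicate block, and 1 to 41 and 2 to 63 with a library left out.

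Efferocytic against non-efferocytic members gave 538 and 788 genes, and 258 and 497 without the replicate block, 115 and 256 with DESeq2, 819 higher without a filter, 12 and 58 with all 4 rule genes, 0 and 0 after thinning, and 375 and 950 with library totals (28.3% of calls higher, against 40.6%). Leaving out a library, without the block, gave 0 to 278 and 0 to 472. In macrophage-marker members it gave 138 and 221, 9 and 49 without the replicate block, 4 and 25 with DESeq2, 62 and 116 with library totals, and 6 to 88 and 47 to 164 with a library left out.

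The share of members in the non-efferocytic and efferocytic libraries of Experiment 1 and then of Experiment 2 was 0.111%, 0.211%, 0.04997% and 0.240% after thinning, 0.0725%, 0.388%, 0.0820% and 0.404% with all 4 rule genes, and 2.10%, 4.97%, 2.10% and 7.22% with at least 2. It was 0.749% in the non-efferocytic library of Experiment 2 at 5000 UMIs or more. It was higher in efferocytic cells of both experiments in each of these settings, though after thinning the intervals overlapped in Experiment 1.

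Log2 differences that turned were those of Srm (-0.25), Eif2s1 (-0.022), Nop58 (-0.068) and Ube2c (-0.19) with all 4 rule genes, of Camp (-3.722), Eif2s1 (-0.54), Myc (-1.23) and Srm (-0.60) after thinning, of Cd74 (0.092), Eif2s1 (-0.013) and Srm (-0.074) in the planned gate, of Rrm2 (-0.61) and Tyms (-0.64) in macrophage-marker cells, and of Ctgf (-0.37) for the difference between groups against all remaining cells. After thinning the median of all genes was -0.45, and the values of Eif2s1 and Srm lay near it. The cause of these turns was not tested. Single genes of the macrophage-marker fits were not recomputed without each library. The setting without any cell cycle UMI left 1 to 3 members per library and could not be fitted.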

Other observations

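Of 9 tested interferon response genes, 4 were lower in members and none higher over all members (median -0.58), beside 12.5% of all genes called lower, and 2 were lower and none higher in macrophage-marker cells (median -0.21), beside 9.58%. Few sterol synthesis genes were called between members and equal-depth cells, with 1 of 15 lower over all members (Msmo1) and 2 of 14 in macrophage-marker cells, while 11 of 15 were lower in efferocytic than in non-efferocytic macrophage-marker members. In macrophage-marker cells the difference of differences had a median of -0.63, with 1 of 15 genes above 0 and none called. In those thinned to 5000 UMIs the sterol sum rose from 0 to 3 rule genes in the non-efferocytic libraries (342 to 443 and 332 to 512 CPM). It fell in the efferocytic ones (234 to 181 and 326 to 306 CPM). With 4 rule genes, on 6 to 32 cells, it was at 200 to 289 CPM.

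In 2 of the 22 members with too few markers for any class, both in the non-efferocytic library of Experiment 1, Ddit3 was at 999 CPM and Atf4 at 857 CPM, above the 183 CPM and 321 CPM of the macrophage-marker members of that library. These 2 cells were chosen after their values were seen and had a median of 14009.5 UMIs. Such members of the efferocytic library of Experiment 1 and of the non-efferocytic and efferocytic libraries of Experiment 2 held Ddit3 at 536, 257 and 533 CPM. Their Atf4 was at 443, 314 and 520 CPM. Remaining cells with too few markers held Ddit3 at 215 to 268 CPM and Atf4 at 176 to 273 CPM, with medians of 1232 to 1791 UMIs. A Ddit3 level like that of macrophage-marker members was thus not particular to members.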
